A study of Drosophila melanogaster with 60 samples.

Results

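The core circadian clock of Drosophila melanogaster is described here through the chromatin of 10 genes in male brains: the activators Clk and cyc, the repressors per and tim, the second-loop genes vri and Pdp1, the repressor cwo, the photoreceptor gene cry and the kinase genes dco and sgg. Every deposited peak whose interval overlapped the span of 1 of these genes by at least 1 bp was taken as a member. That gave 34 of 14894 H3K4me3 peaks, of which 33 were strong enough to be tested, over 9 of the 10 genes. It gave 49 of 21113 RNA polymerase II (RNAPolII) peaks over all 10 genes, and all 49 were tested. No H3K4me3 peak lay over cry, and the untested peak was a short one over tim (2L:3499418-3499596) with a mean of 9.34. Some members also lay over other genes, 3 with H3K4me3 and 11 with RNAPolII, and these are named where they are described.

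The data came from CUT&RUN, in which an antibody directs a nuclease to its target on chromatin and the released DNA is sequenced. H3K4me3 sits mainly on nucleosomes at active gene starts, and RNAPolII shows where the transcribing enzyme is. Each library held pooled male brains, 15 for H3K4me3 and 30 for RNAPolII, and there were 60 libraries in all, 3 biological replicates for each of 2 antibodies, 5 genotypes and 2 housings. The mutants were Or47b (w+/Y; Or47b2/3; +/+), mutant for a pheromone receptor gene, Or67d (w+/Y; +/+; Or67dGAL4/GAL4), mutant for the gene of a receptor for a male pheromone, fru (w+/Y; +/+; fruLexA/4-40) and dsx (w-/Y; +/+; dsxf00683-d07058/f01649-d09625), the last 2 with altered alleles of genes of the sex determination pathway. The wild type was Canton-S (CS), and males of each genotype were single-housed (SH) or group-housed (GH). Of the mutants only dsx carried w-, and each mutant is 1 allele combination whose strain background, the X chromosome included, cannot be told apart from the mutation. The labels used here give neither the age of the flies nor the time of day at which brains were taken, which matters for genes whose activity cycles daily.

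Values are deposited normalized counts, that is reads in a peak divided by a size factor of the library. Libraries held 2309386 to 9269525 reads in H3K4me3 peaks and 3007711 to 6459322 in RNAPolII peaks. Of 4 genes that mark neurons, all had peaks with both antibodies, with mean values of their strongest peaks from 27.8 (elav) to 1550 with H3K4me3 and from 749 to 1395 with RNAPolII. Of 5 glial genes 3 had an H3K4me3 peak (19.4 to 57.5) and none lay over repo or nrv2, while all 5 had RNAPolII peaks (182 to 639). H3K4me3 peaks also lay over 6 of 6 photoreceptor genes (9.55 to 1125, the highest over Rh4), 2 of 3 testis genes (23.0 over aly and 1036 over vas, none over bam), 2 of 4 muscle genes (29.3 and 60.8) and 3 of 4 fat body genes (21.3 to 637), and some of these peaks are shared with other genes. RNAPolII peaks lay over 3 of 6 photoreceptor genes (239 to 598) and 3 of 3 testis genes (166 to 491.5). They also lay over 4 of 4 muscle genes (22.8 to 589) and 4 of 4 fat body genes (84.8 to 400), some shared as well. In bulk brain, fewer cells of a type and less signal per cell cannot be told apart, and clock neurons and clock-bearing glia are a small part of the tissue. Libraries also differed in how far strong peaks stood above weak ones. This spread, the median log2 value of the 25% of tested peaks with the highest means minus that of the 50% with the lowest, averaged 5.44 in Or47b, 5.78 in Or67d, 5.43 in fru, 5.58 in dsx and 5.21 in CS with H3K4me3, and 3.55, 3.53, 3.48, 3.45 and 3.57 in the same order with RNAPolII. Results with RNAPolII are also given without the third replicates of Or47b GH, Or47b SH and Or67d GH. These 3 had correlations to the median library of 0.973 to 0.978, against 0.977 to 0.989 in the other 27, and Or47b GH 3 was within the range of the other 27 on that measure and on the spread. Unless another setting is named, a call refers to the reported fit, that is limma with all libraries and peaks of a mean of at least 10.

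The fly clock is a feedback loop of transcription. The proteins CLOCK and CYCLE bind together to drive per and tim, whose products build up, enter the nucleus and block that drive, so the transcripts of per and tim rise and fall each day. The kinases encoded by dco (doubletime) and sgg (shaggy) set the pace at which PER and TIM are modified and moved, the light-sensitive protein of cry causes TIM to be destroyed, VRI and PDP1 repress and activate Clk in a second loop, and CWO damps the targets of the activators.

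In CS, levels per kb of peak ordered the genes as follows, using the strongest peak over each gene (its lead peak). With H3K4me3 the highest lead peak per kb was that of cyc, at 944 ± 107 normalized counts per kb (SD, n = 6), followed by dco at 415 ± 41.8. Neither overlapped its neighbours in the order. The lead peaks of per (145 ± 20.1), Pdp1 (104 ± 18.4) and sgg (92.0 ± 10.1) came next, and neighbours among these overlapped between libraries. Below them lay tim (37.0 ± 6.22), vri (32.7 ± 5.66), cwo (32.5 ± 8.42) and Clk (26.1 ± 8.90), again with overlapping ranges. The cyc peak was short, at 429 bp, against 2194 bp for dco and 3177 bp for per. In counts not divided by length, CS averaged 405 at cyc, 911 at dco and 462 at per. The lead peaks of tim and vri had 38.4% and 6.69% of their length in the gene. With RNAPolII the order was different at the top, with sgg (159 ± 27.9 per kb), vri (157 ± 22.5), Pdp1 (152 ± 29.2) and per (143 ± 21.0) overlapping each other. Then came cyc (90.5 ± 10.5), cwo (74.3 ± 9.40), cry (59.5 ± 2.97), dco (53.9 ± 3.97) and tim (52.8 ± 4.67), each overlapping the next, and Clk was lowest at 34.4 ± 3.66 per kb, apart from the rest. RNAPolII peaks were longer than H3K4me3 peaks and often ran over neighbouring genes, so the 2 orders are not of the same stretches of DNA.

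The period gene stood apart from the other clock genes in the comparison of mutants with wild type. Its lead H3K4me3 peak (X:2684594-2687770, over per alone) fell in both fru and dsx brains and did not pass the test in either receptor mutant. In dsx it had 181, 247 and 256 normalized counts in the SH libraries and 214, 220 and 200 in the GH libraries. In fru it had 238, 276 and 351 in SH libraries and 274, 262 and 304 in GH libraries. In CS it had 562, 465 and 403 in SH libraries and 403, 429 and 509 in GH libraries. All 6 libraries of each of these mutants were below all 6 of CS, a pattern that 0.896% of all tested H3K4me3 peaks showed for dsx and 0.696% for fru. The lead peak averaged 220 ± 28.1 in dsx and 284 ± 39.0 in fru, against 462 ± 63.7 in CS (SD, n = 6 each).

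The log2 change of this peak was -1.07 in dsx (SE 0.099, 95% interval -1.26 to -0.869, limma adjusted p = 2.62e-14), which is 0.477 of the CS level. In fru it was -0.70 (SE 0.099, interval -0.897 to -0.501, limma adjusted p = 1.67e-07), or 0.616 of the CS level. Both passed the test in each of 41 settings tried, at -1.25 to -0.99 for dsx and -0.81 to -0.63 for fru. In Or47b the peak had 468, 520 and 577 normalized counts in SH libraries and 442, 475 and 525 in GH libraries, and in Or67d 509, 486 and 511 in SH libraries and 579, 520 and 531 in GH libraries. These overlapped CS, with log2 changes of 0.12 in Or47b (limma adjusted p = 0.692) and 0.19 in Or67d (limma adjusted p = 0.138). Set directly against fru, dsx had a log2 difference of -0.37 (interval -0.566 to -0.17, limma adjusted p = 0.027). That direct comparison was added after the values were seen, 1.72% of all tested peaks passed it (0.593% lower in dsx), and it missed the threshold in 6 of 41 settings. These were the fit to the compared libraries alone and the fits without dsx GH 3, dsx SH 1, fru GH 1, fru GH 3 or fru SH 3.

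**Figure D1:**
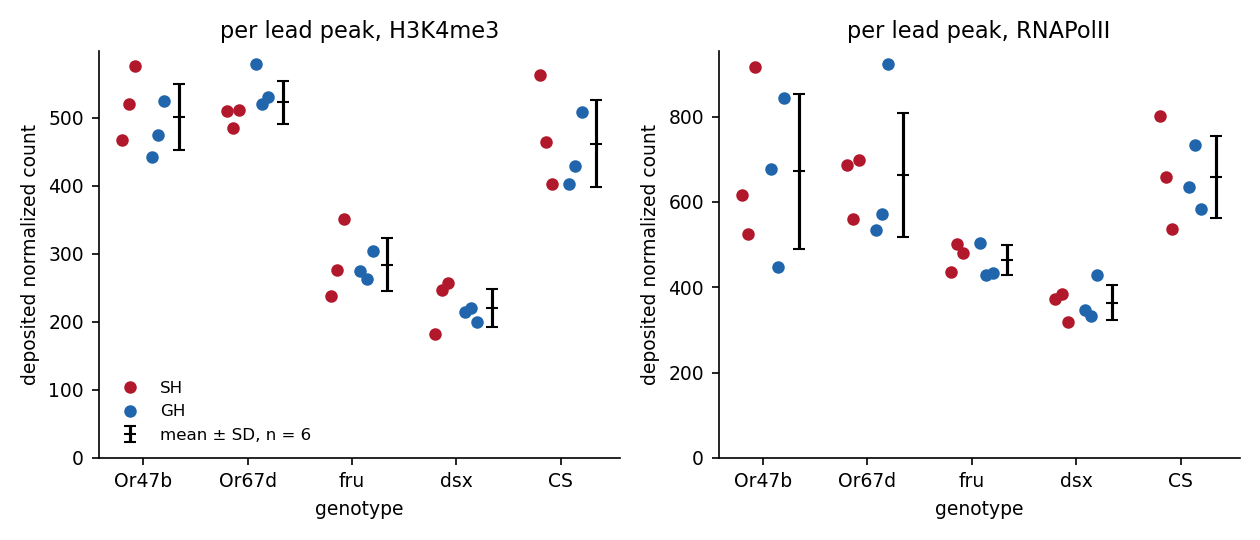
Normalized counts of the lead peak of per in every library, with H3K4me3 on the left and RNAPolII on the right, by genotype. Red points are single-housed and blue points group-housed libraries, and the black bar is the mean ± SD of 6 libraries; with both antibodies all fru and dsx libraries lie below all CS libraries.

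The second, much weaker H3K4me3 peak over per (X:2691705-2692987, shared with dyw) averaged 16.9 ± 3.42 normalized counts in Or67d, 18.8 ± 6.91 in fru and 18.8 ± 2.57 in dsx, against 32.3 ± 9.43 in CS (SD, n = 6 each). Its log2 changes were -0.77 in fru (limma adjusted p = 0.106) and -0.72 in dsx (limma adjusted p = 0.0758), neither past the threshold. In Or67d all 6 libraries, at 12.28 to 21.07, were below the lowest CS library of 21.14, as in 2.3% of all tested peaks, and the change of -0.87 passed the test (limma adjusted p = 0.00995). Of all tested H3K4me3 peaks, 12.5% passed as lower in Or67d. With the library spread as a covariate the Or67d change was -0.41 (limma adjusted p = 0.711), and after quantile normalization it was -0.59 (limma adjusted p = 0.12), so its call ended in both.

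RNAPolII over the same end of per was lower in dsx too. The lead RNAPolII peak (X:2683331-2687942, shared with lncRNA:CR44470) had 372, 384 and 319 normalized counts in dsx SH libraries and 346, 334 and 429 in dsx GH libraries. In fru it had 435, 501 and 479 in SH libraries and 504, 429 and 433 in GH libraries. In CS it had 800, 659 and 536 in SH libraries and 635, 733 and 583 in GH libraries. All 6 libraries of either mutant were below all 6 of CS, which 1.48% of all tested RNAPolII peaks showed for dsx and 0.887% for fru. The log2 change was -0.85 in dsx (SE 0.141, interval -1.13 to -0.557, limma adjusted p = 0.000323), and it passed the test in all 42 settings tried. The change in fru, -0.49 (SE 0.141, interval -0.783 to -0.205), did not pass with all libraries in the fit (limma adjusted p = 0.103). It did pass without the 3 third-replicate libraries named above, none of which is fru or CS, at limma adjusted p = 0.000145, and it passed in 6 of 42 settings in all. The share of all tested RNAPolII peaks that passed without those 3 libraries is not given here. The direct difference of dsx from fru was -0.35 (limma adjusted p = 0.546, with 0.797% of all tested peaks past the test).

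The per RNAPolII value moved with the library spread, which on average was also lower in dsx and fru than in CS. With that spread as a covariate the log2 change was -0.47 in dsx (limma adjusted p = 6.18e-07) and -0.22 in fru (limma adjusted p = 0.0382). The part of the spread in the RNAPolII result beyond these values was not tested. With H3K4me3, where the spread was on average higher in dsx and fru than in CS, the same covariate gave -1.25 in dsx and -0.81 in fru. Or47b and Or67d averaged 671 ± 181 and 663 ± 145 at the RNAPolII peak, against 658 ± 96.7 in CS (SD, n = 6 each), and both log2 changes were -0.00 (limma adjusted p = 0.999 and 0.998). The longer RNAPolII peak next to it (X:2688435-2700803, shared with dyw, Spg7 and Lint-O) changed by -0.18 in fru (limma adjusted p = 0.218) and -0.17 in dsx (limma adjusted p = 0.168), neither past the threshold. At this peak all 6 fru libraries (483 to 521) were below all 6 of CS (533 to 621), as in 0.887% of all tested RNAPolII peaks.

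Peaks around per did not share the size of its change. Within 50 kb on either side, leaving out peaks over per, the 11 H3K4me3 peaks tested ranged from -0.21 to 0.36 in dsx and from -0.15 to 0.30 in fru. Of these, 2 passed the test in dsx, both higher (over CG2685 and CG2694, 0.36, and over CG2701 and fs(1)Yb, 0.29). In fru limma called 0 of the 11, with 2 at an unadjusted p under 0.05, and the lowest adjusted p was 0.0526. Of all 14513 tested H3K4me3 peaks, 2104 were under that unadjusted cut in fru. The peak nearest on 1 side, over HLH3B and CG2652, had values of -0.15 in fru and 0.05 in dsx, and the nearest on the other, over Spg7 and Lint-O, -0.02 and 0.05. Only peaks lying wholly within the window were taken, so any longer peak that crossed its edge was left out. The 15 RNAPolII peaks tested in that window all lay on 1 side of per, 14 over sgg and 1 over HLH3B and CG2652. Their changes ran from -0.45 to 0.31 in dsx and from -0.34 to 0.30 in fru, and limma called 0, with 3 at an unadjusted p under 0.05 in each mutant and lowest adjusted p of 0.125 in dsx and 0.375 in fru. Of all 21076 tested RNAPolII peaks, 3380 in dsx and 2275 in fru were under that unadjusted cut.

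**Figure D2:**
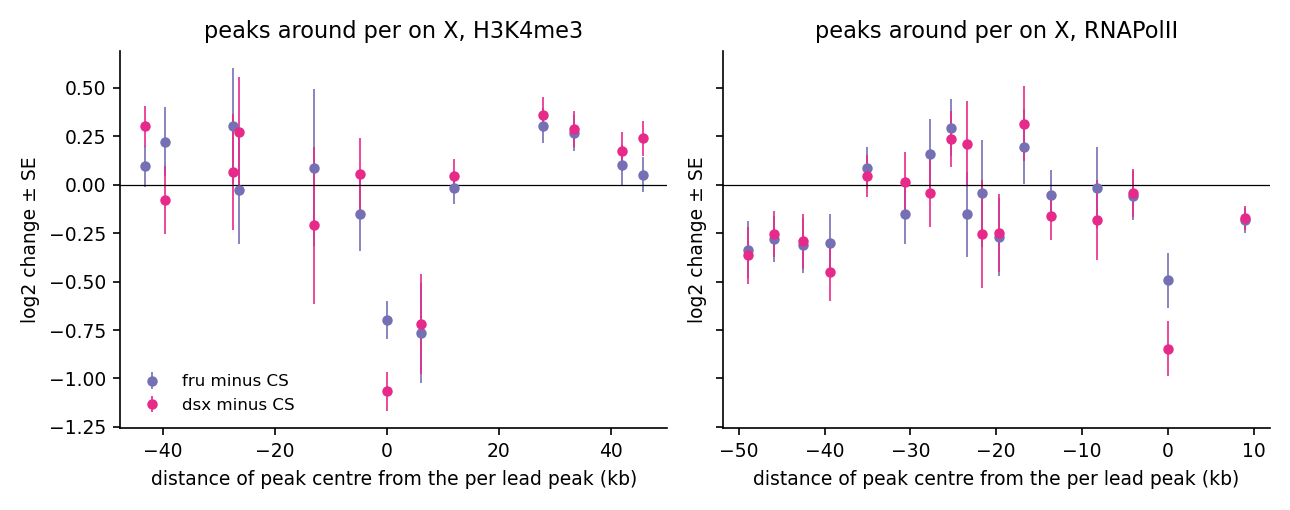
Log2 change ± SE in fru and dsx, each minus CS, of all tested peaks lying wholly within 50 kb of per on the X chromosome. Values are drawn against the distance of peak centres from that of the per lead peak in kb. The lead peak is at 0, and the next point to its right is the other peak over per; at 0 both mutants lie lowest or near lowest of all points shown.

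Timeless, the partner of per in repression, showed no call in any mutant. Its lead H3K4me3 peak (2L:3507194-3509607, shared with lncRNA:CR45299, CG31954 and asRNA:CR45300) averaged 82.9 ± 13.6 normalized counts in Or47b, 89.8 ± 15.6 in Or67d, 89.3 ± 7.14 in fru and 92.4 ± 12.4 in dsx, against 89.2 ± 15.03 in CS (SD, n = 6 each). Its lead RNAPolII peak (2L:3501442-3506266, shared with snoRNA:Or-CD16) ranged from 277 to 316 in dsx with a median of 286, against 238 to 296 with a median of 245 in CS. That log2 change of 0.19 (interval 0.0296 to 0.359) did not pass the test (limma adjusted p = 0.228), nor did any of the 3 RNAPolII peaks over tim in any mutant. At the gene pair driven by the same activators, the dsx changes of the lead peaks with H3K4me3 and RNAPolII were thus -1.07 and -0.85 for per, both past the test, and 0.05 and 0.19 for tim, neither past it.

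Of the activators, Clk fell and cyc rose with H3K4me3 in Or67d, and no peak of either passed in another mutant or with RNAPolII in the reported fit. In Or67d such calls were common, with 17.5% of all tested H3K4me3 peaks passing as higher and 12.5% as lower. The lead H3K4me3 peak of Clk (3L:7764749-7766259) was weak, with 13.2 to 28.4 normalized counts and a median of 20.0 in Or67d, against 24.0 to 54.8 and a median of 39.5 in CS. The ranges overlapped, and the log2 change was -0.88 (SE 0.239, limma adjusted p = 0.00584). The single H3K4me3 peak over cyc (3L:19815566-19815994) had 464 to 551 with a median of 526 in Or67d, against 353 to 475 with a median of 406 in CS. These ranges overlapped as well, and the log2 change was 0.36 (SE 0.099, limma adjusted p = 0.00618). Both calls ended with the library spread as a covariate, at -0.43 for Clk (limma adjusted p = 0.658) and 0.07 for cyc (limma adjusted p = 0.858), and Or67d was the genotype with the highest spread. Both also missed the threshold after quantile normalization, at -0.62 for Clk (limma adjusted p = 0.0878) and 0.13 for cyc (limma adjusted p = 0.271), and Clk did by edgeR (adjusted p = 0.0549) and DESeq2 (adjusted p = 0.0693). The edgeR and DESeq2 fits did without CS GH 2, which had 51.3 at the Clk peak. A weaker H3K4me3 peak over Clk (3L:7772197-7772560) changed by 0.64 in dsx (limma adjusted p = 0.129) and passed after quantile normalization (0.86, limma adjusted p = 0.0423). RNAPolII over Clk (3L:7767751-7773851) averaged 234 ± 31.1 in Or67d and 229 ± 15.1 in dsx, against 210 ± 22.3 in CS (SD, n = 6 each), and over cyc (3L:19812647-19816568, shared with Cyp305a1 and Fibp) 369 ± 55.5 in Or67d and 322 ± 18.7 in dsx, against 355 ± 41.3 in CS, none past the test.

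Of the second-loop genes, Pdp1 held calls and vri held none in the reported fit. The lead H3K4me3 peak of Pdp1 (3L:7852511-7855715) was higher in Or67d, with 461, 453 and 493 normalized counts in SH libraries and 510, 486 and 512 in GH libraries. In CS it had 308, 284 and 389 in SH libraries and 328, 273 and 420 in GH libraries. All 6 Or67d libraries were above all 6 of CS, as in 4.02% of all tested H3K4me3 peaks, and the log2 change was 0.56 (SE 0.104, limma adjusted p = 9.55e-05). It was 0.21 with the library spread as a covariate (limma adjusted p = 0.392), the 1 of 41 settings in which it did not pass. A neighbouring Pdp1 peak (3L:7847582-7849343) averaged 137 ± 10.9 in Or67d, against 109 ± 15.8 in CS (SD, n = 6 each), a change of 0.33 (limma adjusted p = 0.0363) that missed the threshold in 11 of 41 settings. Of all tested H3K4me3 peaks, 17.5% passed as higher in Or67d. The lead RNAPolII peak of Pdp1 (3L:7854330-7857038) averaged 522 ± 211 in Or47b, 495 ± 210 in Or67d, 377 ± 35.8 in fru and 362 ± 70.4 in dsx, against 413 ± 79.2 in CS (SD, n = 6 each), with log2 changes from -0.19 in dsx to 0.27 in Or47b and none past the test.

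In Or47b the calls at Pdp1 lay at other peaks, near the far end of its coordinates. A weak H3K4me3 peak (3L:7867055-7867652) had 58.9, 58.5 and 56.2 normalized counts in Or47b SH libraries and 44.6, 39.7 and 60.3 in Or47b GH libraries. In CS it had 30.4, 30.5 and 28.8 in SH libraries and 22.4, 16.1 and 40.6 in GH libraries. The ranges overlapped slightly, by 1 library on each side, and the log2 change was 0.93 (SE 0.22, limma adjusted p = 0.0115). It was 0.73 by edgeR (adjusted p = 0.237) and 0.75 by DESeq2 (adjusted p = 0.245), fits that themselves did without CS GH 2 and Or47b SH 2. By limma it missed the threshold without CS GH 2 and without Or47b GH 3. The RNAPolII peak across the same stretch (3L:7863178-7870792, shared with CG32365) had 408, 367 and 559 in Or47b SH libraries and 427, 369 and 589 in Or47b GH libraries. In CS it had 332, 326 and 345 in SH libraries and 305, 353 and 304 in GH libraries. All 6 Or47b libraries were above all 6 of CS, as in 0.384% of all tested RNAPolII peaks, and the change was 0.44 (SE 0.1, limma adjusted p = 0.0236). The highest values, 559 and 589, came from Or47b SH 3 and Or47b GH 3. Without these and Or67d GH 3 the change was 0.26 (limma adjusted p = 0.126), and 9 of 42 settings in all missed the threshold, among them the fits without CS GH 1, CS GH 3, CS SH 1, CS SH 2, Or47b GH 3 or Or47b SH 3.

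The lead H3K4me3 peak of vri (2L:5286365-5289128, shared with lncRNA:CR44743 and lncRNA:CR44742, with 6.69% of its length in vri) averaged 79.4 ± 10.2 normalized counts in Or47b, 76.8 ± 6.71 in Or67d, 69.7 ± 4.16 in fru and 81.3 ± 9.64 in dsx, against 90.4 ± 15.6 in CS (SD, n = 6 each). The change in fru was -0.35 (limma adjusted p = 0.173). A weaker H3K4me3 peak over vri (2L:5301093-5301832) changed by -0.45 in dsx (limma adjusted p = 0.0674), which passed with a mean of at least 50 (adjusted p = 0.0392) and with TMM rescaling (adjusted p = 0.0429). The vri RNAPolII lead peak (2L:5305205-5309849) had 673 to 1208 with a median of 860 in Or47b, against 656 to 936 with a median of 686 in CS, a change of 0.32 (limma adjusted p = 0.503). In fru and dsx it lay at 720 ± 24.4 and 730 ± 87.9, against 732 ± 104 in CS (SD, n = 6 each). Over all 5 H3K4me3 peaks of vri the changes ran from -0.57 to 0.08 in dsx and from -0.36 to -0.04 in fru, and over its 6 RNAPolII peaks from -0.14 to 0.27 in dsx and from -0.24 to 0.22 in fru. The 12 H3K4me3 peaks of Pdp1 ran from -0.38 to 0.30 in dsx and from -0.24 to 0.36 in fru, and its 15 RNAPolII peaks from -0.42 to 0.27 in dsx and from -0.32 to 0.20 in fru.

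For cwo, the repressor of the activators' targets, and cry, no peak passed the test in any mutant in the reported fit. The lead H3K4me3 peak of cwo (3R:10397344-10399325) averaged 65.0 ± 20.1 normalized counts in Or47b, 56.2 ± 13.1 in Or67d, 61.6 ± 15.4 in fru and 56.6 ± 9.70 in dsx, against 64.4 ± 16.7 in CS (SD, n = 6 each). Its RNAPolII lead peak (3R:10396693-10399438) averaged 219 ± 37.9 in dsx, against 204 ± 25.8 in CS, a change of 0.10 (limma adjusted p = 0.705). The RNAPolII peak over cry (3R:19208626-19219455, shared with lncRNA:CR46393 and vib, with 30.4% of its length in cry) averaged 663 ± 64.3 in Or47b, 613 ± 38.9 in Or67d, 643 ± 54.8 in fru and 640 ± 37.4 in dsx, against 644 ± 32.1 in CS, with log2 changes between -0.07 and 0.04.

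Neither kinase gene passed the test in any mutant in the reported fit. The H3K4me3 peak over dco (3R:31059382-31061575) averaged 955 ± 165 normalized counts in Or47b, 1041 ± 112 in Or67d, 946 ± 107 in fru and 932 ± 53.7 in dsx, against 911 ± 91.8 in CS (SD, n = 6 each). Its RNAPolII lead peak (3R:31048089-31058499, shared with Alp4, mir-4948 and Chchd3) averaged 573 ± 22.0 in dsx, against 561 ± 41.3 in CS. A second RNAPolII peak over dco changed by -0.33 in dsx, which did not pass (limma adjusted p = 0.188). The lead H3K4me3 peak of sgg (X:2641999-2644209) averaged 250 ± 20.2 in dsx, against 203 ± 22.4 in CS, a change of 0.30 (limma adjusted p = 0.0721, and 0.0364 with a mean of at least 50). With RNAPolII the lead peak of sgg (X:2635596-2637729) averaged 267 ± 31.9 in fru and 261 ± 23.5 in dsx, against 340 ± 59.6 in CS. These changes of -0.34 and -0.37 had limma adjusted p of 0.394 and 0.216. A further RNAPolII peak over sgg (X:2645129-2647468) had all 6 dsx libraries (106 to 124) below all 6 of CS (131 to 200), as in 1.48% of all tested RNAPolII peaks. Its log2 change was -0.45 (limma adjusted p = 0.125). Of the 49 RNAPolII members, 3 had this pattern in dsx, the others being the per lead peak and a Pdp1 peak (3L:7836751-7837393).

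Without the 3 third-replicate libraries, both these sgg peaks passed in dsx (limma adjusted p = 0.00707 for the lead peak and 0.00986 for the other), and the lead peak passed in fru (limma adjusted p = 0.0277). That setting was added after the data were seen. The share of all tested RNAPolII peaks that passed in it is not given here. With the library spread as a covariate the lead peak changed by 0.01 in dsx and -0.06 in fru, and the other by -0.11 in dsx, none past the test. The gene sgg lies near per on the X chromosome. Its 14 RNAPolII peaks ran from -0.45 to 0.31 in dsx and from -0.34 to 0.30 in fru, and its 5 H3K4me3 peaks from -0.21 to 0.30 in dsx and from -0.03 to 0.30 in fru, all within the window around per described above.

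**Figure D3:**
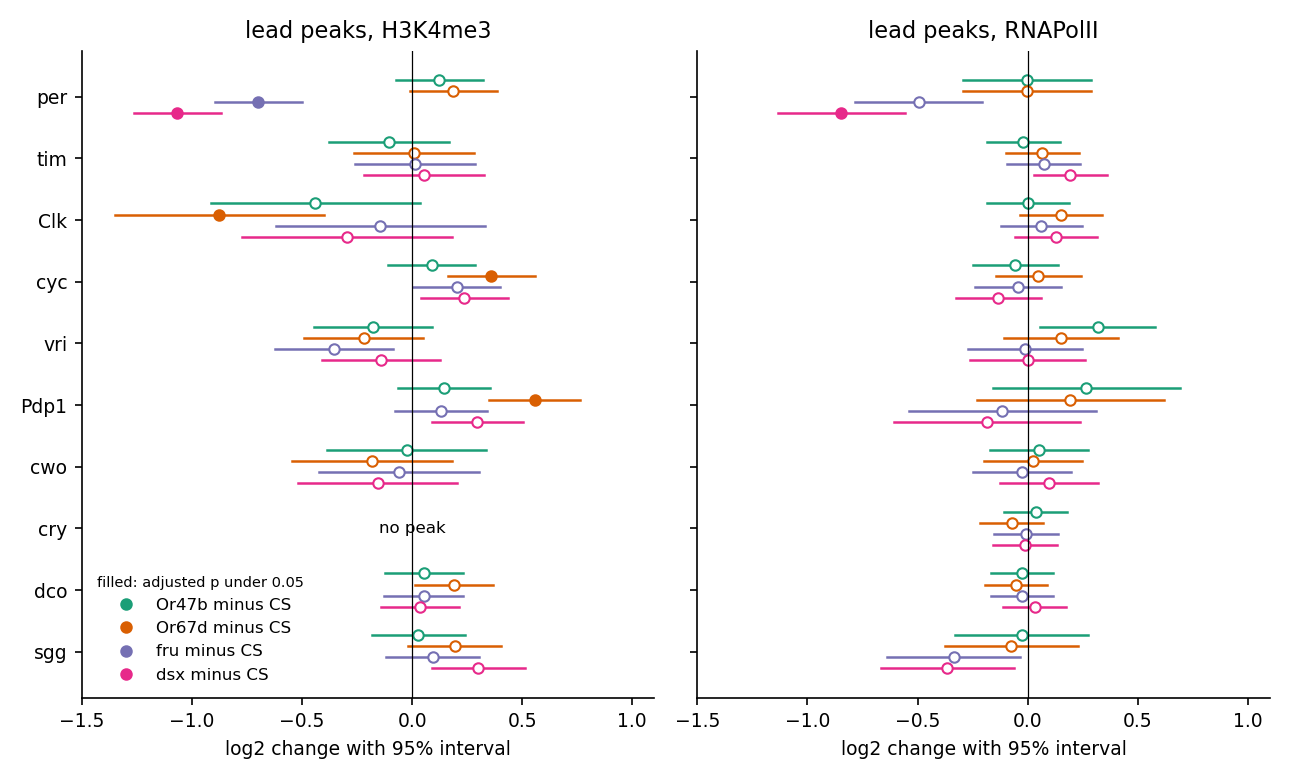
Log2 change with its 95% interval of the lead peak of each clock gene in each mutant minus CS, with H3K4me3 on the left and RNAPolII on the right. Filled points passed the test after adjustment over all peaks; per in fru and dsx lies farthest to the left among the changes of these mutants, and no H3K4me3 peak lay over cry.

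Counted over all members, the calls were few. With H3K4me3, 1 of 33 member peaks passed in Or47b, a higher one, beside 0.806% of all tested peaks (0.427% higher). In Or67d 5 of 33 passed, 3 higher and 2 lower, beside 30% of all tested peaks (17.5% higher and 12.5% lower), so the members' share was no higher than that of all peaks. In fru 1 of 33 passed, a lower one, beside 2.2% (0.944% lower), and in dsx 1 of 33, a lower one, beside 5.4% (1.98% lower). With RNAPolII, 1 of 49 passed in Or47b, a higher one, beside 0.56% (0.304% higher), and 1 of 49 in dsx, a lower one, beside 1.84% (0.883% lower). By limma 0 of 49 passed in Or67d beside 1.08% and 0 of 49 in fru beside 1.04%. At an unadjusted p under 0.05, limma had 3 RNAPolII members in Or67d and 6 in fru, beside 1829 and 2275 of all 21076 tested peaks. EdgeR and DESeq2 called 0 members in both. The median log2 change of the members was small in each mutant. With H3K4me3 it was -0.03 in Or47b, -0.13 in Or67d, 0.01 in fru and -0.14 in dsx, beside medians over all tested peaks of -0.004, -0.06, -0.02 and -0.02 in the same order. With RNAPolII the members' medians lay between -0.0001 and 0.05.

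A wider list of 34 other genes with known roles around the clock was read the same way, 1 lead peak per gene. Of these, 32 had a tested peak with each antibody, with no H3K4me3 peak over Pdf or Ir25a and no RNAPolII peak over jet or Bdbt. With H3K4me3, limma called 0 of 32 in Or47b and in fru (2 and 9 at an unadjusted p under 0.05), beside 0.806% and 2.2% of all tested peaks. Of all 14513 tested peaks, 1438 and 2104 were under that unadjusted cut. Limma called 1 in dsx, beside 5.4%. This was Bdbt, whose product binds the kinase encoded by dco, at 0.36 (limma adjusted p = 0.00707). In Or67d 15 rose and 3 fell, beside 17.5% and 12.5% of all tested peaks, with a median change of 0.22. The list holds only the strongest peak of each gene, while the shares are over all tested peaks, weak ones included. The list and the shares are thus of unlike sets, and no set of equal strength was compared. Those that rose included CkIIalpha, a catalytic subunit of casein kinase 2 (0.43, limma adjusted p = 0.00179), tws, a regulatory subunit of protein phosphatase 2A (0.32, limma adjusted p = 0.00795), and Rh7, a rhodopsin (0.56, limma adjusted p = 0.000213). Those that fell were wdb, another phosphatase 2A subunit (-0.86, limma adjusted p = 0.00854), the neuropeptide gene ITP (-0.60, limma adjusted p = 0.038) and gl, a transcription factor of photoreceptors (-0.48, limma adjusted p = 0.0334). With RNAPolII, 1 of 32 passed in dsx, beside 1.84% of all tested peaks. This was slmb, part of the machinery that degrades PER, at -0.39 (limma adjusted p = 0.0223, peak shared with CG5793 and Obp93a). By limma 0 passed in Or47b, Or67d and fru, beside 0.56%, 1.08% and 1.04%, with 3, 4 and 2 at an unadjusted p under 0.05. Of all 21076 tested peaks, 1620, 1829 and 2275 were under that unadjusted cut. The Or67d rises and falls went with that genotype's high library spread, whose part in them was not tested for this list.

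In the reported fit, housing moved no clock peak past the test in any genotype. At the per lead H3K4me3 peak the SH mean was 522 ± 54.5 normalized counts in Or47b, 502 ± 14.3 in Or67d, 288 ± 57.4 in fru, 228 ± 40.8 in dsx and 477 ± 80.2 in CS, against GH means of 481 ± 41.6, 543 ± 31.3, 280 ± 21.3, 212 ± 10.2 and 447 ± 55.2 in the same order (SD, n = 3 each). The lower per level in fru and dsx was thus present in both housings. Averaged over the 5 genotypes, SH minus GH was 0.04 at this peak (95% interval -0.08 to 0.17) and 0.02 at the RNAPolII lead peak of per (interval -0.17 to 0.20). Over the 9 lead H3K4me3 peaks the averaged housing change ran from -0.14 for cwo to 0.13 for Clk, and over the 10 lead RNAPolII peaks from -0.10 for Clk to 0.03 for dco. The intervals of these averaged changes stayed between -0.37 and 0.43 with H3K4me3 and between -0.35 and 0.20 with RNAPolII, which bounds the size of a shared housing effect at these peaks but does not show that there was none.

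By limma, 0 of 33 H3K4me3 and 0 of 49 RNAPolII members passed for SH minus GH within each genotype, for the average over genotypes, and for the difference between a mutant's housing effect and that of CS. The share of all tested peaks that passed was 0.0345% for H3K4me3 in Or47b and 0% in each of the other housing comparisons. At an unadjusted p under 0.05, H3K4me3 members numbered 5 in Or47b, 1 in Or67d, 2 in fru, 1 in dsx and 3 in CS. Over all 14513 tested peaks the counts were 3823, 564, 529, 342 and 373 in the same order. RNAPolII members numbered 1 in Or47b and 0 in the other 4 genotypes. Over all 21076 tested peaks the counts were 689 in Or47b, 642 in Or67d, 747 in fru, 886 in dsx and 732 in CS. For the average, H3K4me3 members numbered 2, beside 845 of 14513 tested peaks, and RNAPolII members 0, beside 698 of 21076. For the differences in housing effect there were 4 H3K4me3 members for Or47b, 2 for Or67d, 3 for fru and 1 for dsx. All tested H3K4me3 peaks under this cut numbered 1651, 431, 290 and 359 in the same order. There was 1 RNAPolII member each for Or47b and dsx, beside 798 and 813 of all tested RNAPolII peaks. EdgeR called 0 members in all of these comparisons, and DESeq2 called 0 except for 2 H3K4me3 members, cyc and dco, in Or47b, both within that genotype and against CS. With H3K4me3 both tools did without Or47b SH 2 and CS GH 2, whose whole reads were less surely recovered. For Or47b SH minus GH, DESeq2 called 1080 of the 3821 H3K4me3 peaks to which it gave an adjusted p. For the difference of the Or47b housing effect from that of CS it called 862 of 3821, and edgeR called 50 of 14513. A limma fit to the compared libraries alone called 1 H3K4me3 member for housing, cyc in Or47b.

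The cyc peak had 455, 507 and 522 normalized counts in Or47b SH libraries, against 316, 398 and 408 in Or47b GH libraries. The dco peak had 988, 1003 and 1225 in SH libraries, against 761, 804 and 946 in GH libraries. At both peaks the SH libraries were all above the GH libraries, a pattern whose share over all tested peaks was not counted. In this comparison 3823 of 14513 tested H3K4me3 peaks had an unadjusted limma p under 0.05. The log2 changes were 0.41 for cyc (limma adjusted p = 0.103, DESeq2 adjusted p = 0.048) and 0.36 for dco (limma adjusted p = 0.106, DESeq2 adjusted p = 0.0374). The DESeq2 fit did not use Or47b SH 2. The Pdp1 lead peak changed by 0.39 (limma adjusted p = 0.118) and that of cwo by -0.63 (limma adjusted p = 0.13). The library spread moved with these values, at 5.73 ± 0.28 in Or47b SH and 5.14 ± 0.2 in Or47b GH (SD, n = 3 each). With it as a covariate the changes were 0.11 for cyc, 0.04 for dco, 0.03 for Pdp1 and -0.09 for cwo.

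**Figure D4:**
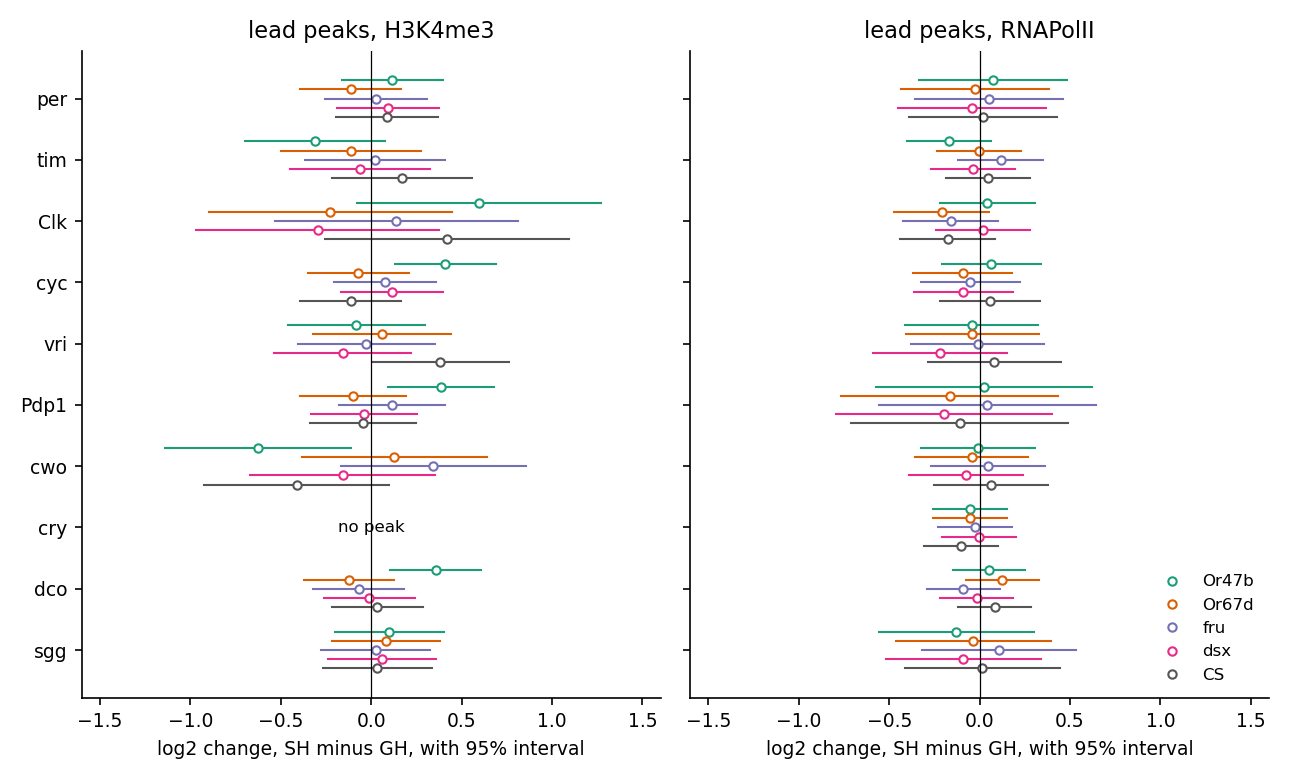
Log2 change, SH minus GH, with its 95% interval at the lead peak of each clock gene in each genotype, with H3K4me3 on the left and RNAPolII on the right. All points are open because none passed the test; the cyc, Pdp1, cwo and dco points of Or47b lie farthest from 0 relative to their intervals.

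Whether per moved together with the other clock genes from library to library was examined on deviations from the group means, with 30 libraries and 17 relations (8 with H3K4me3, 9 with RNAPolII) adjusted together, by a two-sided permutation test within groups. With H3K4me3 the lead peak of per moved with those of dco (Pearson r 0.621, permutation p = 0.00163, adjusted p = 0.00693, Spearman rho 0.624), cyc (r 0.667, adjusted p = 0.0239, rho 0.549) and sgg (r 0.626, adjusted p = 0.0344, rho 0.61), and against that of cwo (r -0.533, adjusted p = 0.0344, rho -0.572). With its partner tim it had r -0.163 (adjusted p = 0.54). With RNAPolII it moved with sgg (r 0.902, adjusted p = 0.00034, rho 0.839), Pdp1 (r 0.876, adjusted p = 0.00153, rho 0.795), vri (r 0.859, adjusted p = 0.0021, rho 0.716) and cyc (r 0.70, adjusted p = 0.00816, rho 0.586). With tim the RNAPolII r was -0.478 (adjusted p = 0.0523). Without the 2 libraries farthest from the median of per these 8 values of r kept their sign, at -0.445 for cwo and 0.49 to 0.549 for the others with H3K4me3, and 0.693 to 0.894 with RNAPolII.

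These relations went with the library spread. The deviations of per had r 0.757 with the deviations of the spread with H3K4me3 and r 0.958 with RNAPolII. Many other tested peaks also moved with per. With H3K4me3, 12.5% of all tested peaks had an r with per at least as high as that of dco. The share was 12% for sgg and 8.22% for cyc, and 7.13% had an r at least as low as that of cwo. With RNAPolII the shares at least as high were 1.09% for sgg, 2.49% for Pdp1, 3.51% for vri and 9.95% for cyc. With the spread removed by regression, 0 of the 17 relations passed. Shared collection time within a library could not be examined, since the labels used here give none.

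**Figure D5:**
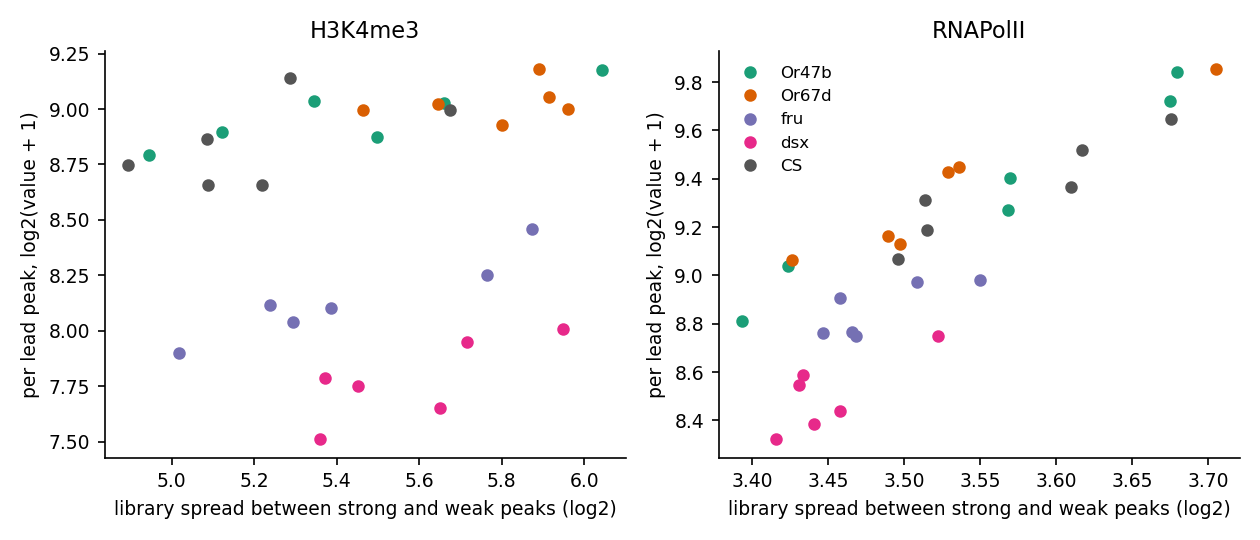
Level of the per lead peak, as log2 of the normalized count plus 1, against the library spread between strong and weak peaks in log2 units, 1 point per library, with H3K4me3 on the left and RNAPolII on the right. With H3K4me3 the fru and dsx points lie below those of the other genotypes at equal spread. With RNAPolII, libraries of higher spread have higher per levels. The dsx points lie at a spread of 3.416 to 3.522, which overlaps the CS range of 3.496 to 3.676.

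Over all 30 libraries, group differences included, the H3K4me3 peaks outside the members most like the per lead peak were those over CG17167 (Pearson r 0.934), sand (r 0.917) and mst (r 0.903). For tim the closest were Caf1-180 (r 0.673), gem with CG46319 (r 0.642) and Bsg (r 0.629), and for Clk the highest r was 0.724. With RNAPolII the closest to per were the peaks over Ctps and CG45071 (r 0.922), over CG17896 and CG17778 (r 0.895) and over CG31287, mtSSB and 2 noncoding genes (r 0.89). For tim with RNAPolII the closest was the peak over lncRNA:CR44583 (r 0.739), and for Clk a peak over Tep3 and 4 other genes (r 0.657). These are descriptions over libraries that share genotype, depth and spread.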

How the data were processed

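Brains of male flies were profiled by CUT&RUN with antibodies to H3K4me3 or RNAPolII and sequenced as 75-bp paired reads, per the labels' protocols. The submitters' processing notes list, with no version, Trim Galore, Bowtie2, MACS2, ChIPseeker and DESeq2. Genome build and read counter: not given in the sources used here. Signal in the deposited tables is a normalized count: the authors scaled the reads of each peak by a size factor of the library. Dividing by that step gave back whole reads to within 0.01 reads. For 4 H3K4me3 and 2 RNAPolII libraries the step was less sure, so the count tests do without them. With H3K4me3 these were CS GH 2, Or47b SH 2, fru GH 1 and fru SH 1, and with RNAPolII CS SH 2 and Or67d SH 3.

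Peaks are placed as in the deposited tables. They were assigned to genes by overlap with gene spans of the Release 6 RefSeq table, used for names only; no sequence is shown. Groups are the labelled genotype and housing. Peaks averaging at least 10 across an antibody's 30 libraries were fitted as log2(value + 1) with limma 3.58.1 in R 4.3.3 (10 group means, eBayes with trend), two-sided, adjusted by Benjamini-Hochberg over all tested peaks of a comparison with a threshold of 0.05. Fold changes are on the log2(value + 1) scale, which understates changes of weak peaks. The comparisons were each mutant minus CS over both housings, SH minus GH in each genotype and averaged, and the difference of housing effects. All mutant comparisons share the CS libraries. Correlations used 100000 permutations within groups.

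The fit was tested on simulated data. Alternatives were another pseudocount, filter or normalization, edgeR 4.0.16 and DESeq2 1.42.0 on whole reads, only the compared libraries, the library spread as a covariate, the replicate number as a block, each library left out, stricter overlap, and, added after seeing the data, leaving out 3 RNAPolII libraries and the contrast of dsx with fru. Same-numbered libraries mostly shared deviations weakly, at r of -0.00674 to 0.317 between housings with H3K4me3 and -0.0438 to 0.407 with RNAPolII. Replicate numbers are those of the titles. The CS libraries carry other numbers in the deposited tables, so the block may match unlike CS and mutant replicates. Of the comparisons, only SH against GH in fru with H3K4me3 had all 3 pairs over 0.1, and the block gave no member call there either. The members and lists were chosen with earlier results of these data known. All 10 genes were named, their strongest peaks in full, other peaks where they passed a test. The second per peaks, the further sgg peak and the Pdp1 peak named with it, the second dco peak and the weaker vri and Clk peaks were picked after their values were seen. Depth limits precision to counting error and replicate spread; the labels mention no molecular identifiers, so duplicates of 1 molecule may be counted.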

Additional observations from a re-analysis of the deposited data

Results flagged for a closer look

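The strongest and the called peaks of the clock genes were examined for single libraries far from the other 5 of their genotype, by Dixon's criterion, over 115 sets of 6 libraries. It was met 14 times, and chance alone gives about 1 in 20. By limma, no clock peak passed for a difference in housing effect between genotypes, while DESeq2 called 2 H3K4me3 peaks, those of cyc and dco, in Or47b against CS.

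With H3K4me3 the library fru SH 1 had 32.0 normalized counts at the weak per peak (X:2691705-2692987), against 13.5 to 20.4 in the other fru libraries. Or67d GH 2 had 120.0 at the tim lead peak, against 78.4 to 91.6, and Or47b GH 2 had 98.9 at the vri lead peak, against 71.1 to 80.7. The library fru SH 3 was high at both Pdp1 peaks that passed in Or67d, with 195 against 117.5 to 143.5 in the other fru libraries at 3L:7847582-7849343 and 466 against 316 to 359 at the lead peak.

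With RNAPolII 5 of the 9 such values came from the libraries Or67d GH 3, Or47b GH 3 and Or47b SH 3. Or67d GH 3 had 1187 at the vri lead peak, against 671 to 855, and 503 at the sgg lead peak, against 241 to 328. Or47b SH 3 had 445 at the cyc peak, against 297 to 349, and 204 at the tim lead peak, against 250 to 275. Or47b GH 3 had 468 at the dco lead peak, against 551 to 588. CS SH 1 had 437 at the cyc peak, against 321 to 348, and 936 at the vri lead peak, against 656 to 747. The library dsx GH 3 had 502 at the Pdp1 lead peak, against 312 to 349, and 306 at the sgg lead peak, against 242 to 261. The lead peaks of per had no such library in any genotype.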

How the results depend on the processing

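The calls at the per lead peaks held in every setting run for H3K4me3 in fru and dsx and for RNAPolII in dsx. Of the counts of member peaks past the test under settings other than leaving out a library, 157 kept within 1.5 times of the reported count and 39 did not; where no value shows why, the cause was not tested. The share of all tested peaks that passed under each alternative setting, leaving out a library included, is not given beside these counts. A change in a count of members may therefore be shared by peaks in general. A mean of at least 50 gave, with H3K4me3, 0 in Or47b, 3 in Or67d and 4 in dsx, with fewer peaks tested. Quantile normalization gave 1 in Or67d and 2 in dsx with H3K4me3, 1 in fru with RNAPolII, and 0 and 2 covariations; TMM rescaling gave 2 in dsx with H3K4me3. EdgeR gave 0 in Or47b with both antibodies and 3 in Or67d with H3K4me3, and DESeq2 gave 0 in Or47b, 3 in Or67d, 2 for housing and 2 for differences in housing effect with H3K4me3. Only the compared libraries gave 1 for housing with H3K4me3 (cyc in Or47b), and 0 in Or47b, 2 in fru and 6 in dsx with RNAPolII. The spread covariate gave 0 in Or67d with H3K4me3 and 4, 2, 4 and 5 in Or47b, Or67d, fru and dsx with RNAPolII, and removing the spread left 0 covariations with either antibody. Without the RNAPolII libraries Or47b GH 3, Or47b SH 3 and Or67d GH 3 there were 0 in Or47b, 2 in Or67d, 2 in fru, 5 in dsx and 2 covariations. Peaks over a single gene gave 0 in Or47b and in dsx with RNAPolII, where the called peaks are shared. Without removal of group means 0 H3K4me3 covariations passed. With the replicate number as a block, H3K4me3 calls were 8 in Or67d, 2 in fru, 6 in dsx and 4 for housing. Libraries of the same number shared deviations weakly with H3K4me3 (median r 0.0928 between housings). The numbers are those of the titles, which for CS differ from those in the deposited tables. The 4 housing calls were all in Or47b, and the block changed no RNAPolII count by over 1.5 times.

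With 1 library left out at a time, H3K4me3 counts ranged from 0 to 1 in Or47b, 4 to 9 in Or67d, 1 to 4 in fru, 1 to 5 in dsx, 0 to 0 for housing and for its average, and 0 to 1 for differences in housing effect. RNAPolII counts ranged from 0 to 1 in Or47b, Or67d and fru, were 1 in dsx and 0 for housing. Low values limit what can be seen with H3K4me3 at Clk, cwo and tim, whose lead peaks averaged 31.1, 60.8 and 88.7 normalized counts and had SE of 0.239, 0.182 and 0.137 for each mutant.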
